A study of Homo sapiens with 9 samples.

Results

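The receptor tyrosine kinases AXL, TYRO3, MERTK, MET, MST1R, EPHA2 and EPHB4 and the ligands GAS6, PROS1 and EFNA1 were followed by gene symbol, 10 of the 26485 genes in the series. RNA was sequenced from MDA-MB-231, a long-established human line of triple-negative breast cancer, in 9 libraries: 3 from cells stably carrying a non-specific (NS) shRNA, 3 from cells carrying ASAH1 shRNA #1 and 3 from cells carrying ASAH1 shRNA #2. The hairpins #1 and #2 are independent sequences against ASAH1, which encodes acid ceramidase, the lysosomal enzyme that splits ceramide. All cells were otherwise untreated, were grown in medium with fetal bovine serum and carried a stable hairpin, and the 3 libraries of a group are labelled biological replicates of 1 cell line. The series asks what loss of ASAH1 does in these cells, and each hairpin was compared with NS shRNA.

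AXL, TYRO3 and MERTK form the TAM family. Their ligands, GAS6 and protein S (PROS1), are secreted proteins that bind phosphatidylserine through a vitamin K-dependent domain, and protein S is also an anticoagulant cofactor. MET is the receptor for hepatocyte growth factor (HGF), and MST1R, also called RON, is its closest relative and binds macrophage-stimulating protein (MST1). EPHA2 and EPHB4 belong to the Eph receptors, which bind membrane-anchored ephrins on neighbouring cells; EFNA1 is an ephrin-A ligand of EPHA2, and EFNB2 is the ephrin-B ligand of EPHB4. AXL, MET and EPHA2 are known as abundant receptors of mesenchymal-like breast cancer cells.

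The libraries held 23806003 to 49659106 reads on genes, and every member was read 251 to 55503 times in each, so all 10 passed the minimum mean of 10 normalized counts. ASAH1 was lower with both hairpins, at 1268, 1365 and 1348 normalized counts with #1 against 4436, 4512 and 4518 with NS shRNA, and at 780, 807 and 762 with #2 against 4787, 4898 and 4871 with NS shRNA. The log2 fold changes of ASAH1 were -1.76 (SE 0.050, adjusted p = 9.49e-09) and -2.63 (SE 0.057, adjusted p = 5.42e-10). Changes were broad: 66.1% of the 14341 genes tested passed with #1 (32.8% higher, 33.3% lower) and 66.9% of 14250 with #2 (33.5% higher, 33.4% lower). VIM, CD44 and KRT18 were abundant and ESR1 and PGR, the hormone receptors, had at most 2 reads in a library. ERBB2 had 1530 to 3581 reads. On the log2 scale VIM was lower with #1 (-0.27) and #2 (-0.67), as was ERBB2 (-0.69 and -0.42). KRT18 was lower with #1 (-0.78) and did not pass with #2 (0.15), and CD44 passed with neither (-0.016 and -0.13). Of the markers of other cells, DCN, CD3E, PTPRC and CDH5 had at most 8 reads and VWF at most 14, while COL1A1, COL1A2, LUM, CD68 and PECAM1 were read in all libraries. Several of these moved: CD68 rose by 0.29 with #1 and fell by 1.38 with #2, LUM was lower with both (-0.43 and -1.76), PECAM1 was lower with both (-0.59 and -0.91), and COL1A2 fell by 1.48 with #1 and rose by 0.31 with #2 on the log2 scale. COL1A1 was at 0.18 and -0.24 and did not pass. The summed fibroblast list (COL1A1, COL1A2, DCN, LUM) was at 1145 to 1287 normalized counts with NS shRNA against 976 to 1105 with #1, and at 1234 to 1389 against 1086 to 1335 with #2. The part of these markers in the results was not tested. In bulk RNA, a change in the share of cells that carry a transcript and a change in RNA per cell cannot be told apart.

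Normalized counts below are whole reads divided by a size factor for each library. The files were scaled separately for each hairpin, so the same 3 NS libraries have slightly different values beside #1 and beside #2; both comparisons rest on these same NS reads. Log2 fold changes are on the log2(value + 1) scale from limma, with adjusted p from limma with Benjamini-Hochberg adjustment over all genes tested, and a gene passed the test below 0.05. The direct contrast of the hairpins used the quasi-likelihood test of edgeR and the whole reads of all 9 libraries, in which 64.0% of 14360 genes passed (31.4% higher and 32.6% lower with #2).

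To place the receptors in the genome, the bases before the transcription start of 4 of them are shown. The 4 were chosen as related pairs whose levels moved by different amounts: EPHA2 beside EPHB4, and AXL beside MERTK. All 10 members matched the RefSeq table. Each line gives the 250 bases upstream of a RefSeq start (GRCh38.p14), 5′ to 3′ on the gene's strand. Capitals mark matches to the GC box GGGCGG, which SP1-type factors bind, the AP-1 site TGANTCA, the cyclic AMP response element TGACGTCA (CRE) or the E-box CACGTG, searched on both strands with no overlaps among those found. The windows are chr1:16156070-16156319 (minus strand), chr7:100827524-100827773 (minus), chr19:41218973-41219222 (plus) and chr2:111898357-111898606 (plus).
EPHA2: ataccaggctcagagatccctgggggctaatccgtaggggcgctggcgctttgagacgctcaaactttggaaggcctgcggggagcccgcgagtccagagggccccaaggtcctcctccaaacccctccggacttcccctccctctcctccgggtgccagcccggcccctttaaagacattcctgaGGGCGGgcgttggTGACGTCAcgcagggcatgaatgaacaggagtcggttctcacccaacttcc
EPHB4: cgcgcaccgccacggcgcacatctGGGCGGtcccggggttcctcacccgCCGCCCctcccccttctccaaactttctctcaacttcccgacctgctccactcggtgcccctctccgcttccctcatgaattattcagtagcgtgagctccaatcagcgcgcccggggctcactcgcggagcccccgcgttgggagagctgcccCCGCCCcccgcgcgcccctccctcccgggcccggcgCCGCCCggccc
AXL: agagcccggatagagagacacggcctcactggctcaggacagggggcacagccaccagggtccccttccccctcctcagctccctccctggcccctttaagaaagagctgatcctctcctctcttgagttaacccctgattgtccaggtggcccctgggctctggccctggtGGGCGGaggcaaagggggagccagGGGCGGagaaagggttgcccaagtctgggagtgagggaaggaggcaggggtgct
MERTK: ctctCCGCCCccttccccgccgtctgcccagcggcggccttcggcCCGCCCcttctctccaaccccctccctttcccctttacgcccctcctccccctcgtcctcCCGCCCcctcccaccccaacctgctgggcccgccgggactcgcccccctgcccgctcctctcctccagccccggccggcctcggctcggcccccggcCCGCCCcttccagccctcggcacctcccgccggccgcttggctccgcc
The EPHA2 window held 1 GC box and 1 CRE, which ended 59 and 44 bases before the start. EPHB4 and MERTK had 4 GC boxes each and AXL had 2, and in these 3 windows no other motif matched. AXL has a second RefSeq start at chr19:41226755, and its window, not shown, held none of the motifs. Among all 35116 RefSeq windows of this length, 42.6% held a GC box, 1.65% a CRE, 6.57% an AP-1 site and 6.34% an E-box. A match describes the letters only.

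The plot of each library's values shows the 3 libraries of a group lying close together, and the 10 transcripts spread over a wide range of counts. With shRNA #1, 4 members were higher (AXL, MERTK, EPHA2, EFNA1), 4 were lower (GAS6, PROS1, MST1R, EPHB4) and 2 did not pass (TYRO3, MET). With shRNA #2, 5 were higher (AXL, TYRO3, MERTK, MET, EPHA2), 4 were lower (GAS6, PROS1, MST1R, EFNA1) and EPHB4 did not pass. These shares, 8 of 10 and 9 of 10, stand beside 66.1% and 66.9% of all genes. The median log2 fold change of the members was 0.12 with #1 and 0.18 with #2, against 0.0013 and 0.013 over all genes tested.

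**Figure D1:**
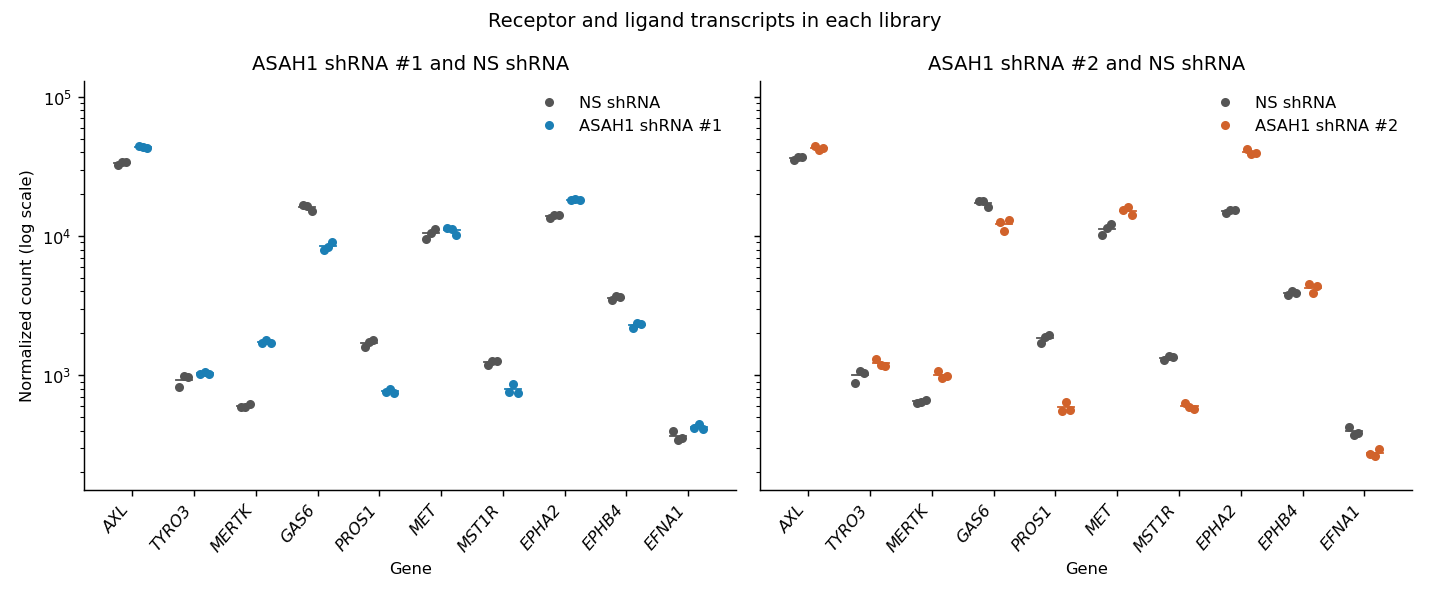
Normalized counts (log scale) of the 10 genes in each library, with NS shRNA in grey, #1 in blue and #2 in orange; points are libraries and bars are means of 3. AXL, TYRO3, MERTK and EPHA2 lie above the NS libraries and GAS6, PROS1 and MST1R below them in both panels, though TYRO3 with #1 did not pass the test. EPHB4 lies below only in the #1 panel and EFNA1 below only in the #2 panel.

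AXL, on chr19:41219223-41261766 (hg38, plus strand, 20 exons in the canonical transcript), was the TAM receptor with by far the most RNA. Its normalized counts were 32491, 34171 and 34065 with NS shRNA and 44138, 43900 and 43058 with #1. Beside #2 they were 35059, 37093 and 36729 with NS shRNA and 44191, 41530 and 43052 with #2. The ASAH1 libraries lay above all NS libraries in each comparison. The log2 fold change was 0.38 with #1 (SE 0.041, adjusted p = 3.16e-05) and 0.24 with #2 (SE 0.050, adjusted p = 0.00145). AXL was slightly lower with #2 than with #1, by a log2 ratio of -0.15 (edgeR adjusted p = 0.00408). Of all genes tested, 51.3% with #1 and 32.0% with #2 had a smaller absolute change than AXL. When the libraries were instead scaled by their total reads, the value with #2 was 0.11 (adjusted p = 0.0748) and no longer passed; that scaling moved the median of all genes with #2 to -0.12.

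MERTK, on chr2:111898607-112029561 (plus strand, 19 exons), is the TAM receptor best known for the clearance of dead cells by phagocytes. It had the largest rise of the 10 genes with #1. Its normalized counts were 589, 594 and 618 with NS shRNA against 1714, 1805 and 1693 with #1, and 636, 645 and 666 with NS shRNA against 1067, 954 and 987 with #2. The groups did not overlap in either comparison, and the spread within each was small beside the gap. The log2 fold change was 1.53 with #1 (SE 0.057, adjusted p = 4.45e-08), a 2.89-fold rise, and 0.63 with #2 (SE 0.072, adjusted p = 2.45e-05), a 1.54-fold rise. MERTK was lower with #2 than with #1 by a log2 ratio of -0.92 (edgeR adjusted p = 1.24e-07).

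TYRO3, on chr15:41557675-41583589 (plus strand, 19 exons), is the TAM receptor best known from the nervous system. It had 819, 988 and 969 normalized counts with NS shRNA and 1022, 1055 and 1023 with #1. Beside #2 the NS libraries had 884, 1073 and 1044 and the #2 libraries 1310, 1185 and 1171. The ASAH1 libraries were the higher ones each time, and NS replicate 1 was the lowest. With #1 the log2 fold change of 0.16 (95% interval -0.011 to 0.34) did not pass (limma adjusted p = 0.0893), and with #2 it was 0.29 (SE 0.087, adjusted p = 0.0125). Without #2 replicate 1 the latter was 0.24 (adjusted p = 0.0629), and with scaling by total reads 0.16 (adjusted p = 0.134), so the rise of TYRO3 with #2 depends on both choices. The hairpins did not differ at the threshold, with a log2 ratio of 0.12 (SE 0.074, edgeR adjusted p = 0.191) that was -0.024 with scaling by total reads. The pseudogene TYRO3P, a close copy of the receptor gene, had at most 3 reads in a library.

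GAS6, on chr13:113820549-113864076 (minus strand, 15 exons), is the TAM ligand that activates all 3 receptors. It was lower with both hairpins. The libraries had 16640, 16448 and 15055 normalized counts with NS shRNA and 7971, 8412 and 8995 with #1, and 17955, 17854 and 16232 with NS shRNA and 12609, 10820 and 13057 with #2. Every NS library stood above every ASAH1 library. The log2 fold change was -0.92 with #1 (SE 0.059, adjusted p = 1.07e-06) and -0.52 with #2 (SE 0.075, adjusted p = 0.00013). The hairpins differed, GAS6 being higher with #2 than with #1 by a log2 ratio of 0.40 (edgeR adjusted p = 0.000574).

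PROS1, on chr3:93873051-93980003 (minus strand, 15 exons), fell more than any other member with each hairpin. It had 1590, 1729 and 1790 normalized counts with NS shRNA against 762, 798 and 741 with #1, and 1715, 1877 and 1930 with NS shRNA against 554, 644 and 567 with #2. The lowest NS library was far above the highest ASAH1 library. The log2 fold change was -1.15 with #1 (SE 0.064, adjusted p = 4.86e-07) and -1.64 with #2 (SE 0.081, adjusted p = 7.85e-08). In contrast to GAS6, PROS1 was lower with #2 than with #1, by a log2 ratio of -0.51 (edgeR adjusted p = 9.43e-05). The 2 TAM ligands thus moved in the same direction but ranked the hairpins in opposite order.

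MET, on chr7:116672196-116798377 (plus strand, 21 exons), encodes the HGF receptor. It had 9467, 10545 and 11323 normalized counts with NS shRNA and 11520, 11269 and 10170 with #1, and these groups overlapped. Beside #2 they were 10216, 11447 and 12208 with NS shRNA and 15479, 16159 and 14127 with #2, with no overlap. With #1 the log2 fold change was 0.07 (95% interval -0.088 to 0.24, limma adjusted p = 0.385), and with #2 it was 0.44 (SE 0.074, adjusted p = 0.000407). MET was higher with #2 than with #1 by a log2 ratio of 0.35 (edgeR adjusted p = 0.00133).

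MST1R, on chr3:49887002-49903873 (minus strand, 20 exons), is the other receptor of the MET family. Unlike MET, it was lower with both hairpins. It had 1191, 1268 and 1260 normalized counts with NS shRNA and 764, 862 and 749 with #1, and 1285, 1376 and 1359 with NS shRNA and 629, 594 and 570 with #2. All ASAH1 libraries lay below all NS libraries. The log2 fold change was -0.65 with #1 (SE 0.070, adjusted p = 3.00e-05) and -1.16 with #2 (SE 0.070, adjusted p = 2.91e-07), and MST1R was lower with #2 than with #1 by a log2 ratio of -0.53 (edgeR adjusted p = 3.77e-05).

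EPHA2, on chr1:16124337-16156069 (minus strand, 17 exons), had the largest rise of the 10 genes with #2. Its normalized counts were 13528, 14280 and 14163 with NS shRNA against 18164, 18436 and 18159 with #1, and 14597, 15501 and 15270 with NS shRNA against 42138, 38794 and 39457 with #2. The groups were separate in both comparisons, by a wide gap with #2. The log2 fold change was 0.38 with #1 (SE 0.041, adjusted p = 3.06e-05), a 1.30-fold rise, and 1.41 with #2 (SE 0.053, adjusted p = 1.55e-08), a 2.65-fold rise. With #2, 93.3% of all genes tested had a smaller absolute change than EPHA2. The hairpins differed by a log2 ratio of 1.01 (SE 0.041, edgeR adjusted p = 6.19e-09). The window printed for EPHA2 ends directly before this transcript's start.

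EPHB4, on chr7:100802565-100827523 (minus strand, 17 exons), is an Eph receptor of the B class with a known part in vessel and breast epithelium. It had 3493, 3710 and 3628 normalized counts with NS shRNA and 2173, 2382 and 2347 with #1. Beside #2 it had 3770, 4027 and 3911 with NS shRNA and 4548, 3905 and 4345 with #2, and these overlapped. EPHB4 was lower with #1, with a log2 fold change of -0.65 (SE 0.054, adjusted p = 5.29e-06). With #2 the value was 0.13 (95% interval -0.021 to 0.27, limma adjusted p = 0.115). It became 0.19 (adjusted p = 0.0207) without #2 replicate 2 and -0.0081 with scaling by total reads, so its sign with #2 is not settled by these data. The difference between hairpins was a log2 ratio of 0.77 (edgeR adjusted p = 1.12e-06), higher with #2.

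EFNA1, on chr1:155127876-155134899 (plus strand, 5 exons), was the member with the fewest reads and the only member that passed in opposite directions. Its normalized counts were 396, 343 and 355 with NS shRNA and 420, 449 and 414 with #1 and did not overlap. Beside #2 they were 427, 373 and 383 with NS shRNA and 271, 261 and 296 with #2. With #1 the log2 fold change was 0.23 (SE 0.082, adjusted p = 0.0318), and with #2 it was -0.51 (SE 0.096, adjusted p = 0.000761). The rise with #1 did not pass without NS replicate 2 (0.19, adjusted p = 0.110), NS replicate 3 (0.21, adjusted p = 0.0695), #1 replicate 1 (0.24, adjusted p = 0.0570) or #1 replicate 2 (0.19, adjusted p = 0.122). The fall with #2 passed each time. The log2 ratio of #2 to #1 was -0.76 (edgeR adjusted p = 1.11e-05).

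**Figure D2:**
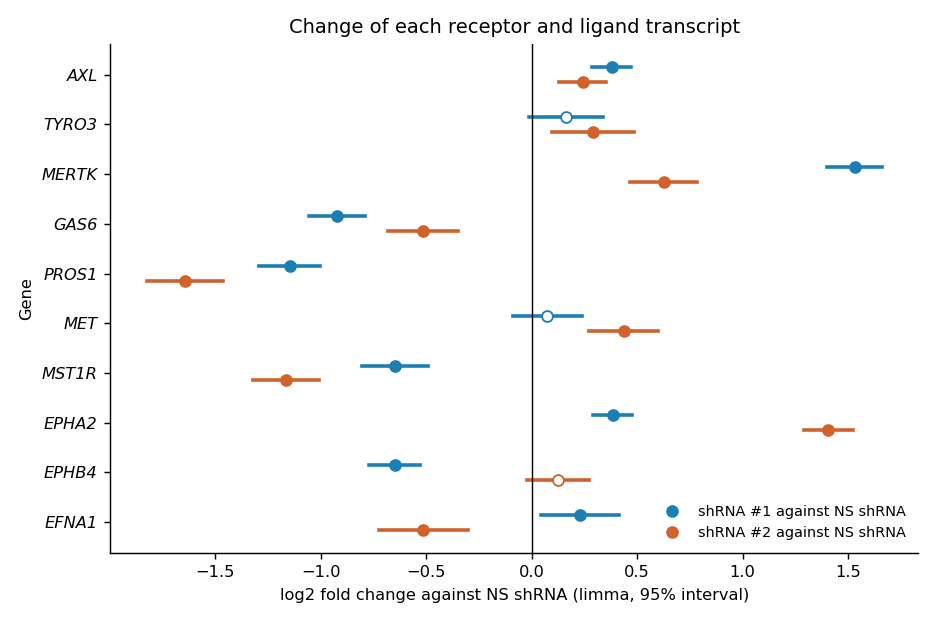
Log2 fold change of each gene against NS shRNA for hairpin #1 (blue) and #2 (orange), from limma; bars are 95% intervals and open points did not pass an adjusted p of 0.05. MERTK (1.53) with #1 and EPHA2 (1.41) with #2 lie farthest to the right, and PROS1 with #2 (-1.64) farthest to the left.

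Levels of different genes were compared per length, as RPKM, the recovered reads scaled to the length of the canonical transcript and to the library's reads on genes. RPKM thus uses the scaling by total reads, which moved the median log2 fold change of all genes with #2 to -0.12. It serves to order genes within a group, and changes between groups are given by the log2 fold changes above. With NS shRNA the order was AXL (220 ± 6.85, SD, n = 3), GAS6 (198 ± 10.0), EPHA2 (110 ± 3.49), MET (47.4 ± 4.40), EPHB4 (25.7 ± 0.835), PROS1 (15.6 ± 0.999), MST1R (8.04 ± 0.299), EFNA1 (7.27 ± 0.524), MERTK (4.86 ± 0.141) and TYRO3 (3.57 ± 0.365). MST1R and EFNA1 overlapped over their libraries, and the other neighbours did not. With #1, EPHA2 (145 ± 1.17) stood above GAS6 (106 ± 6.17), and MERTK (14.2 ± 0.479) stood directly below EPHB4, where with NS shRNA it was above TYRO3 alone. With #2, EPHA2 (265 ± 10.8) was the most abundant of the 10, ahead of AXL (237 ± 6.13), and MST1R (3.27 ± 0.163) was the least; EFNA1 (4.64 ± 0.272) and PROS1 (4.55 ± 0.408) overlapped. Several places depend on the transcript length used. With the union of all annotated exons, which for GAS6 has 6015 bases in place of 2508, GAS6 stood below EPHA2 already with NS shRNA, and MERTK stood above EPHB4 with #1. On that scale MST1R (2.97 ± 0.148), TYRO3 (2.96 ± 0.180) and PROS1 (2.91 ± 0.261) were the lowest with #2, each overlapping the next, so which of them was least is not settled. EPHA2 stayed above AXL with #2.

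**Figure D3:**
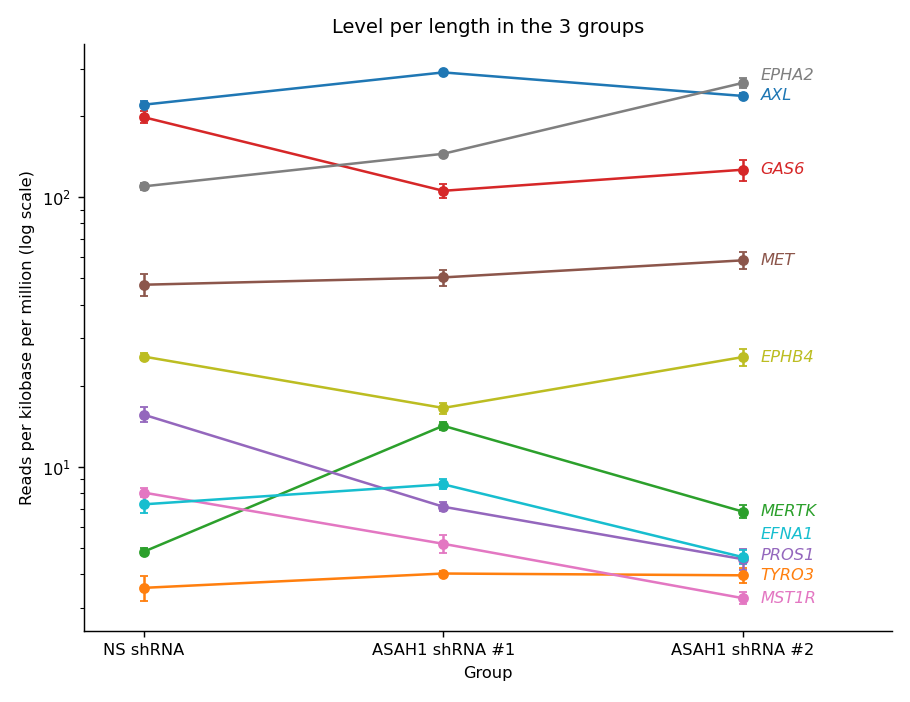
RPKM over the canonical transcript (log scale) in the 3 groups; points are means of 3 libraries and bars are SD. The lines of EPHA2 and AXL cross between #1 and #2, and MERTK is highest with #1 (14.2).

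Within each library, the balance of related genes can be read without any scaling between libraries. All shares in this paragraph are of reads corrected for the length of the canonical transcript. MERTK held 2.12% ± 0.0524 of the length-corrected TAM receptor reads with NS shRNA, 4.61% ± 0.132 with #1 and 2.75% ± 0.0783 with #2, the rest being almost all AXL. MST1R held 14.5% ± 0.765 of the MET plus MST1R reads with NS shRNA, 9.34% ± 0.620 with #1 and 5.31% ± 0.278 with #2. EPHA2 held 81.0% ± 0.109 of the EPHA2 plus EPHB4 reads with NS shRNA, 89.7% ± 0.407 with #1 and 91.2% ± 0.375 with #2. The 3 libraries of each hairpin lay outside the NS range for these 3 shares (SD, n = 3 per group; exact two-sided permutation p = 0.1, the smallest that 3 against 3 allows). Not every share separated. TYRO3 held 1.56% ± 0.112 of the TAM receptor reads with NS shRNA, 1.31% ± 0.0235 with #1 (exact permutation p = 0.1) and 1.60% ± 0.0664 with #2, the last overlapping NS shRNA (exact permutation p = 0.7). PROS1 held 7.34% ± 0.749 of the GAS6 plus PROS1 reads with NS shRNA, 6.34% ± 0.488 with #1, which overlapped (exact permutation p = 0.2), and 3.51% ± 0.632 with #2 (exact permutation p = 0.1).

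Ligand against receptor, the log2 ratio of GAS6 to AXL reads was -1.07 ± 0.107 (SD, n = 3) with NS shRNA, -2.37 ± 0.106 with #1 and -1.82 ± 0.110 with #2. For PROS1 to MERTK it went from 1.50 ± 0.0618 to -1.18 ± 0.0118 and -0.77 ± 0.191, so that the receptor had more reads than the ligand in every ASAH1 library and fewer in every NS library. EFNA1 to EPHA2 was -5.26 ± 0.148 with NS shRNA and -5.42 ± 0.0501 with #1, which overlapped (exact permutation p = 0.2, n = 3), and -7.19 ± 0.113 with #2. EFNB2 to EPHB4 rose from -1.25 ± 0.0782 to -0.26 ± 0.216 and -0.45 ± 0.149. All of these contrasts but EFNA1 to EPHA2 with #1 had an exact permutation p = 0.1, which 3 against 3 libraries cannot go below.

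**Figure D4:**
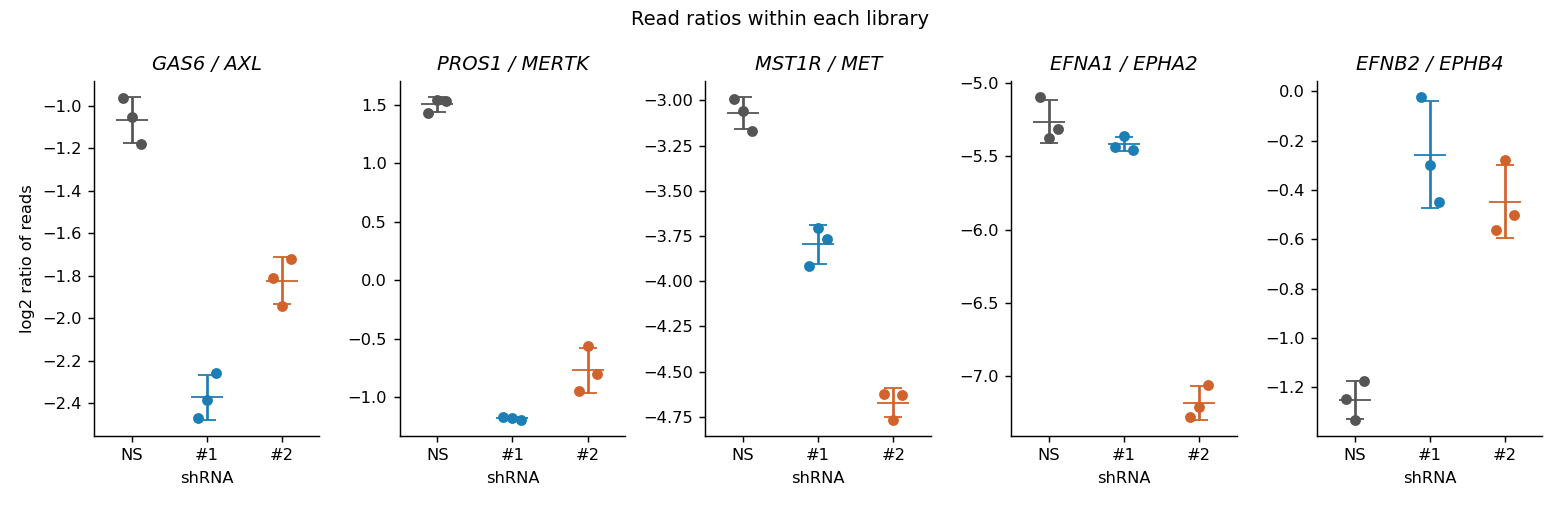
Log2 ratio of reads of gene pairs within each library for NS shRNA, #1 and #2; points are libraries, and bars are the mean and SD of 3. GAS6 to AXL, PROS1 to MERTK and MST1R to MET are lower with both hairpins, EFNB2 to EPHB4 is higher with both, and EFNA1 to EPHA2 is lower with #2 (-7.19 against -5.26).

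Ligands of MET and MST1R were scarce. HGF had no read in the NS and #1 libraries and 1 read in 1 library with #2. MST1, the ligand of MST1R, had 70, 93 and 97 normalized counts with NS shRNA against 41, 38 and 39 with #1, and 76, 101 and 105 against 24, 19 and 25 with #2. Its log2 fold change was -1.10 with #1 (adjusted p = 0.000345) and -2.00 with #2 (adjusted p = 1.12e-05), the same direction as MST1R. Of 8 genes listed as ligands, activating proteases and inhibitors of these receptors, 6 were tested. With #1, 3 were lower, none was higher and 3 did not pass, and with #2, 4 were lower, 1 was higher and 1 did not pass. Over all genes, 66.1% passed with #1 (32.8% higher, 33.3% lower) and 66.9% with #2 (33.5% higher, 33.4% lower). The medians were -0.61 and -1.30 on the log2 scale, against 0.0013 and 0.013 over all genes tested. SPINT1 (HAI-1), an inhibitor of the proteases that activate HGF, fell by 1.26 with #1 and by 1.66 with #2. HPN (hepsin), which is such a protease, had -0.20 with #1 (adjusted p = 0.522) and fell by 2.80 with #2, from 25 to 38 normalized counts to 2 to 8. With #2 it met the minimum mean of 10 only through the NS libraries (mean 32.1 against 4.2). The size of this fall is therefore uncertain, and HPN is part of the count and median given above for #2. The other 3 tested genes, named after their values were seen, did not all follow. HGFAC, an HGF-activating protease, was at -0.78 with #1 (adjusted p = 0.0504) and rose by 1.18 with #2, from 17 to 26 normalized counts to 32 to 65. ST14 (matriptase), a protease of the same kind, was at 0.04 with #1 (adjusted p = 0.787) and fell by 0.95 with #2. SPINT2 (HAI-2), the most abundant inhibitor, fell by 0.43 with #1 and was at 0.14 with #2 (adjusted p = 0.276).

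Other Eph receptors and ephrins numbered 19, of which 11 were tested. With #1, 3 were higher, 4 lower and 4 did not pass. With #2, 6 were higher, 3 lower and 2 did not pass, with medians of 0.13 and 0.22. The shares that passed, 7 and 9 of 11, stand beside 66.1% and 66.9% of all genes. By direction, all genes were 32.8% higher and 33.3% lower with #1, and 33.5% higher and 33.4% lower with #2. EFNB2, the ephrin ligand of EPHB4, rose by 0.34 with #1 (adjusted p = 0.00417) and 0.93 with #2 (adjusted p = 4.46e-07), from 1588, 1601 and 1733 to 3084, 3221 and 3068 normalized counts in the latter. EPHB3 rose by 0.86 and 2.31 from a low level of 15 to 26 normalized counts with NS shRNA. EPHA4, an Eph receptor that binds both ephrin classes, was 0.18 with #1 (adjusted p = 0.178) and rose by 1.57 with #2, where its normalized counts were 625, 630 and 517 against 195, 178 and 221. EFNB3 fell by 1.33 with #1 and by 0.67 with #2. The other tested ephrin-A genes are named after their values were seen. EFNA5 had more reads than EFNA1 in every library and fell by 1.05 with #1 and by 0.50 with #2. EFNA4 was lower with #1 (-0.34) and higher with #2 (0.37). EFNA3 did not pass with #1 (-0.25) and was lower with #2 (-0.59). Between hairpins, 6 of these genes were higher with #2, none was lower and 5 did not pass, beside 31.4% higher and 32.6% lower of all genes.

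Downstream and regulatory genes were mixed, and their counts stand beside the 66.1% of all genes that passed with #1 (32.8% higher, 33.3% lower) and the 66.9% with #2 (33.5% higher, 33.4% lower). GAS6 and PROS1 need vitamin K-dependent carboxylation; of its 3 genes, VKORC1, the vitamin K epoxide reductase, fell by 0.50 with #1 and by 0.58 with #2, VKORC1L1 fell by 0.27 with #1 and rose by 0.34 with #2, and GGCX, the carboxylase, was at -0.05 and 0.01 and did not pass. Of 16 adaptors and effectors that receptor tyrosine kinases share, 15 were tested: 4 were higher, 4 lower and 7 did not pass with #1, and 10 were higher, 3 lower and 2 did not pass with #2 (medians 0.0013 and 0.42). PIK3R1 (p85 alpha) rose by 0.76 and 0.92, and PIK3R2 (p85 beta) fell by 0.35 and by 0.69, in the order #1 and #2, while CRKL was 0.11 (adjusted p = 0.0572) with #1 and rose by 0.61 with #2. Of the 15, 3 rose and 1 fell with both hairpins, and 4 passed in opposite directions. These 4, named after their values were seen, were GAB2 (0.64 and -0.36), PTPN11 (-0.17 and 0.74), VAV2 (-0.45 and 0.45) and NCK2 (-0.37 and 0.56). The shares of all genes that passed in the same or in opposite directions were not counted. Whether these counts are unusual for the list therefore cannot be said. All 10 receptor ubiquitin ligases, phosphatases and sheddases were tested: 4 were higher, 3 lower and 3 did not pass with #1, and 6 were higher, 3 lower and 1 did not pass with #2 (medians 0.044 and 0.22). ADAM10, a protease that sheds ephrins and receptors including AXL and MET, fell by 1.29 with #1 and by 0.22 with #2. PTPRJ, a receptor phosphatase that acts on MET, fell by 1.04 and by 0.42, and PTPN2 rose by 0.72 and 0.34.

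**Figure D5:**
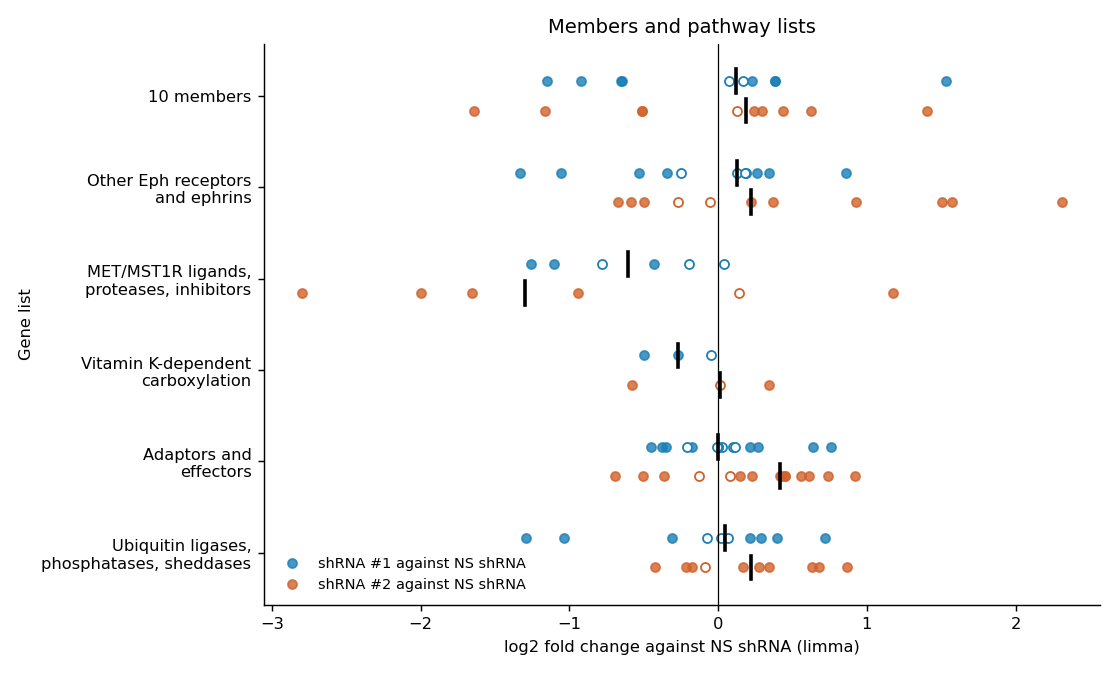
Log2 fold change against NS shRNA (limma) of the 10 members and of the tested genes of 5 lists, with #1 in blue and #2 in orange; filled points passed an adjusted p of 0.05 and black bars are medians. The ligands, proteases and inhibitors of MET and MST1R have the lowest medians (-0.61 and -1.30). Points lie on both sides of 0 in every list except the vitamin K genes with #1.

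To find transcripts of like shape, the log2 TMM-scaled CPM of each gene were centred over the 9 libraries and compared with those of AXL, MET and EPHA2 among 11631 genes with at least 100 reads on average. The nearest to AXL were COL6A2, XPO6 and SMYD5, at root-mean-square differences of 0.022, 0.030 and 0.032. RBAK, WDR44 and EFCAB14 were nearest to MET (0.033, 0.036 and 0.036). For EPHA2, whose own spread over the libraries was 0.60, the nearest were AMMECR1, MIR22HG and TBL1XR1 (0.060, 0.073 and 0.077). AXL and MET varied little, at 0.16 and 0.21, so many genes lie close to them.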

How the data were processed

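RNA of 9 MDA-MB-231 libraries, 3 each with NS shRNA, ASAH1 shRNA #1 and ASAH1 shRNA #2, was sequenced with a strand-specific protocol. Per the submitters' notes the authors used Trimmomatic 0.36 for trimming, STAR 2.7.1a for alignment (hg38), HTSeq for counting and DESeq2 1.28 for scaling. The deposited values are a normalized signal, reads divided by a size factor per library, in 1 table per hairpin that each hold the 3 NS libraries. The authors' own fold changes and p-values were not used. Whole reads were recovered for 100% of values above 0 (tolerance 0.01), and NS reads were identical in both tables.

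Each hairpin was compared with NS shRNA by limma 3.58.1 (intensity trend) on log2(value + 1), for genes with a mean of at least 10 over the 6 libraries, with Benjamini-Hochberg adjustment and a threshold of 0.05. The hairpins were compared by edgeR 4.0.16 (quasi-likelihood, TMM) on the reads of all 9 libraries. DESeq2 1.42.0, edgeR in place of limma, other pseudocounts, filters and scalings, a replicate block and each library left out were alternatives. Scaling by total reads was added after seeing the data. The limma, edgeR and DESeq2 tests of each hairpin against NS shRNA were tried on simulated data with far fewer changed genes than were called here. The direct contrast of the hairpins, the replicate block and the permutation tests were not tried in this way.

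Named genes are ASAH1, the 10 members, HGF, MST1 and EFNB2, the 3 genes of each list with the largest absolute mean change, the 3 genes nearest in pattern to AXL, MET and EPHA2, and cell type markers, of which 1 is not reported here. TYRO3P is named as a copy of a member, and some further list genes were named after their values were seen. Members and lists were chosen with earlier results of these data known. Gene positions are from GENCODE on hg38 and sequences from RefSeq. Intervals are 95% confidence intervals for the mean log2 difference between groups, with a variance that limma moderates over all genes tested. They reflect only the variation between these libraries.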

Additional observations from a re-analysis of the deposited data

Results flagged for a closer look

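For 9 of the 10 genes the effect of shRNA #2 differed from that of shRNA #1 by a direct test of the difference, beside 64.0% of all genes tested. The log2 ratio of #2 to #1 was -0.15 for AXL, -0.92 for MERTK, 0.40 for GAS6, -0.51 for PROS1, 0.35 for MET, -0.53 for MST1R, 1.01 for EPHA2, 0.77 for EPHB4 and -0.76 for EFNA1, each past the edgeR threshold of 0.05 and in 3 against 3 libraries. ASAH1 itself was lower with #2 than with #1 by a log2 ratio of -0.89. Whether the differences between the hairpins come with the level of ASAH1 or with the hairpin sequence cannot be told apart, since each level of ASAH1 was reached with 1 hairpin.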

How the results depend on the processing

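Of 561 alternative log2 values of ASAH1 and the members in the 3 comparisons, 550 kept their direction and their side of the threshold, 8 no longer passed, 1 newly passed and 2 changed sign. Of 204 alternative counts of called genes, 203 stayed within 1.5 times the main count. Scaling by total reads, chosen after seeing the data, moved the median log2 of all genes with #2 to -0.12 (3638 higher, 5914 lower, against 4780 and 4758) and of #2 against #1 to -0.14 (3101 higher, 6156 lower, against 4511 and 4676). Under it, 3 members were called higher with #2 in place of 5, EPHB4 with #2 was -0.0081 and the log2 ratio of TYRO3 between hairpins was -0.024, both opposite in sign. Deviations from the group mean had r between -0.30 and -0.088 for same-numbered libraries of NS shRNA and the hairpins. Those of #1 and #2 had r of 0.053, 0.093 and 0.20. Differently numbered libraries were not compared, so these values cannot settle whether the numbers pair the samples. With a replicate block, 4120 genes were higher and 4117 lower with #1, and EFNA1 with #1 was 0.23 (adjusted p = 0.0873). Leaving out each library in turn gave 3 to 4 members higher with #1, 4 to 6 higher with #2, and 4 lower with each. Over the alternatives that keep all libraries, AXL with #2 ran from 0.11 to 0.24 (highest adjusted p = 0.0748), TYRO3 with #2 from 0.16 to 0.29 (0.134) and EFNA1 with #1 from 0.23 to 0.25 (0.0873). The cause of each change was not tested.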
